A study of Homo sapiens with 2 samples.

Results

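RBMS3 sites in coding sequence were a small portion of the RBMS3 map and were split into 2 kinds by the share of tags with the deletion. At 449 sites, covered by few tags, 30% or more of the tags carried it (all tags at 308 sites). At the other 83 sites, covered by many tags, under 30% carried it. FLAG-tagged RBMS3 was expressed in MDA-MB-231, an established human line of triple-negative breast cancer cells, because the tag allows recovery with an antibody against FLAG. Both samples carried this protein and both were irradiated with ultraviolet light of 254 nm at 400 mJ/cm2, so the series has 1 group (FLAG-tagged RBMS3) of 2 biological replicates, and control libraries were not analysed here. The replicate 2 labels disagree on the cell line: its title says MDA-MB-231 and other fields give MDA-MB-232, and it was treated as its title says. The tags of both replicates were pooled before sites were found, so each site has 1 pair of counts and no error between replicates, and a site can rest on 1 replicate. Of 8 transcripts typical of mesenchymal or basal breast lines (such as VIM and CD44), 8 had a site in an exon, against 5 of 11 luminal ones (KRT8, KRT18, KRT19, EPCAM and GATA3), a check of binding and not of expression. A site in coding sequence was in 2 of the 8 and in 0 of the 11. For scale, 6258 of all 20046 protein-coding genes had a 3′UTR site.

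A site here is the position of a deletion in the sequenced tags (unique RNA fragments), read by the method as the base where the reverse transcriptase skipped a remnant of crosslinked protein. The members were the sites whose deleted base lay, on the same strand, in annotated coding sequence (GENCODE release 44, hg38) and in no annotated 3′UTR or 5′UTR of any transcript. They numbered 532 of the 27486 sites outside the mitochondrial genome (1.94%, 95% Wilson interval 1.78 to 2.11%) and of 27706 sites in all. The mitochondrial genome held another 132 sites in coding sequence, which were left out. The members lay in 443 genes, all protein-coding, on 23 chromosomes, 277 of them on the plus and 255 on the minus strand. Of these genes, 387 had 1 site, 43 had 2 and 13 had 3 or more. Where sites of the same strand no more than 50 nt apart were joined, there were 510 clusters. The count depends on the annotation order: a single representative transcript for each gene gave 800 members, and 891 resulted when coding sequence was taken before the UTRs.

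RBMS3 belongs to a family of RNA-binding proteins with RNA recognition motifs that bind single-stranded RNA rich in A and U, and it has been studied mainly as a protein that binds 3′UTRs and affects how long mRNAs last. Coding sequence differs from 3′UTRs in that ribosomes travel along it and that codons constrain its bases. Lysine is encoded by AAA and AAG and glutamate by GAA and GAG, so stretches of charged residues give RNA rich in A. In this protocol the bound RNA received a poly(A) tail, and oligo(dT) served for its capture and its reverse transcription, a step that stretches of A within an mRNA could also meet.

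Sites among those with the most deletions are shown first, since the results turn on them. Each line gives the 21-nt interval of a site in hg38, 5′ to 3′ on the transcript strand in DNA letters, with the deleted base in capitals.
KIF5B, chr10:32034803-32034823, minus strand: gaacacagttTgtgtcaatgt
KIF5B, chr10:32034773-32034793, minus strand: tgcagaacagTggaaaaagaa
COL8A1, chr3:99796108-99796128, plus strand: tttcaggataTttattgtatc
NUCKS1, chr1:205719604-205719624, minus strand: ctatggcagtTcgaaaaagaa
NUCKS1, chr1:205718284-205718304, minus strand: tgaagcccctTctggggagga
KTN1, chr14:55612178-55612198, plus strand: gaacaaaagcTtattcctacc
LGALS3, chr14:55145245-55145265, plus strand: accagtgcttCatataccatg
RPLP2, chr11:812816-812836, plus strand: ggatttggccTttttgattaa

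Stretches of A in coding sequence followed some of these sites and other members. A stretch of A was defined as 10 nt with at least 8 A, looked for within the 50 nt after the deleted base on the genome. All 10 nt had to lie within these 50 nt. The next lines give 20 nt from the start of such a stretch, with its first 10 nt in capitals. The NUCKS1 stretch and the first in KTN1 follow a site shown above, and the others follow further members of KTN1, TOP2A and PRRC2C that are described with their genes.
NUCKS1, chr1:205719593-205719612, minus strand: GAAAAAGAAAaacaaaaaga
KTN1, chr14:55612206-55612225, plus strand: ATAAAAAGAAagcagaaaag
KTN1, chr14:55612385-55612404, plus strand: GAAAGAAAAAagaaggaaaa
TOP2A, chr17:40396291-40396310, minus strand: AGAAAAGAAAaataaaaaga
PRRC2C, chr1:171532763-171532782, plus strand: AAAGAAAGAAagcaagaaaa

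The sites with every tag deleted look different. The sequences of 4 of the 5 with the most tags follow, and the remaining one, in CCN3, is given by its values alone.
ARHGEF3, chr3:56751324-56751344, minus strand: atcaaattttTggaacactgg
CNN3, chr1:94926874-94926894, minus strand: atgacccactTcaacaagggc
ZNF804A, chr2:184938602-184938622, plus strand: ttcctccagcTgccctcccac
BCAR3, chr1:93567337-93567357, minus strand: ctgaaccattTggcaacagcg

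The kinds were defined by the percentage of tags with the deletion, and they also differed in coverage. The 83 sites with the deletion in under 30% of the tags had a median of 3904 tags (quartiles 1293 and 8596, range 137 to 31506) and a median of 54 deletions (range 32 to 279). Their median percentage was 1.60%. The 449 sites with the deletion in 30% or more of the tags had a median of 14 tags (quartiles 9 and 22, range 7 to 120) and a median of 12 deletions. The ranges of tags did not overlap. Since the percentage is deletions over tags, this follows in part from the split itself. Near the boundary, MKNK1 (41 of 137 tags, 29.9%) and C8orf33 (32 of 144 tags, 22.2%) lay just below it, and IWS1 (37 of 120 tags, 30.8%) and HMGB2 (10 of 28 tags, 35.7%) just above. The deletion was in all tags at 308 sites (57.9% of all members), whose tags had a median of 11 and a range of 7 to 45, and 116 of these had fewer than 10 tags. With so few tags, a percentage at such a site is imprecise.

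**Figure D1:**
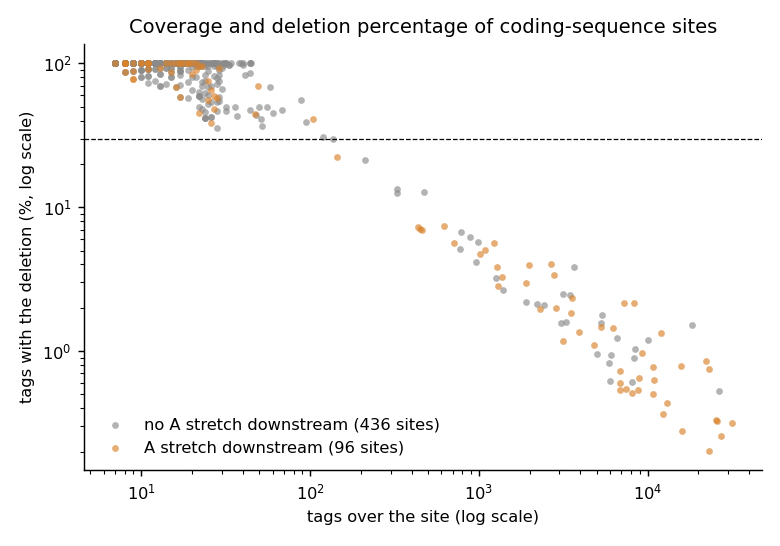
Each point is 1 of 532 coding-sequence sites, by the tags over it (x, log scale) and the percentage of these tags with the deletion (y, log scale); orange points have a stretch of A within 50 nt downstream. The dashed line marks 30%: the 83 sites below it have 137 to 31506 tags and the 449 sites above it 7 to 120, and orange is common below the line (50 of 83) and rare above it (46 of 449).

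Part of the low kind gathered in few places, although 59 of the 83 low sites lay outside the 5 genes with the most sites. The 83 sites lay in 55 genes and 63 clusters, and 37 of them (44.6%) had another site within 50 nt, compared with 4 of 449 (0.891%) of the others. The 449 sites were spread over 400 genes. Only 12 genes held both kinds.

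Members differed from 3′UTR and intronic sites in the share of the low kind. To give each gene equal weight, 1 site per gene was used, the one nearest the 5′ end of the gene. Of the 443 genes with a coding-sequence site, 48 had the deletion in under 30% of the tags (10.8%, 95% Wilson interval 8.27 to 14.1%). The share was 71.7% (70.5 to 72.8%) in 6258 genes with a 3′UTR site and 4.02% (3.30 to 4.89%) in 2364 genes with an intronic site. Both differences passed two-sided Fisher exact tests (adjusted p = 5.39e-147 and 6.22e-08, Benjamini-Hochberg over a family of 8 tests). Coding-sequence sites thus stood far below 3′UTR sites and above intronic sites. The shares depended on the deletions required: with at least 20 they were 35.7% in coding sequence, 88.3% in 3′UTRs and 16.2% in introns. The difference from introns fell from 6.82 to 3.16 percentage points (two-sided Fisher exact test, adjusted p = 0.00892, range over 10 alternatives 7.53e-14 to 0.00892) when members with a stretch of A downstream were left out. Intronic sites with such a stretch were kept, so this fall cannot show how much of the difference goes with the stretches. Of the 443 genes, 360 also had a 3′UTR site, so the groups share genes.

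**Figure D2:**
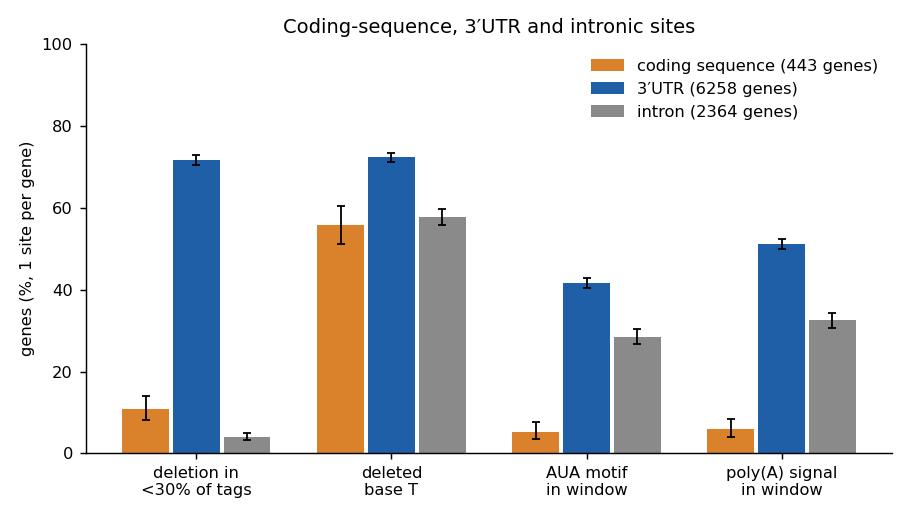
Percentage of genes (y, 1 site per gene) with a site in coding sequence, 3′UTR or intron whose site had the feature on the x axis; error bars are 95% Wilson intervals, which cover counting error only. Coding-sequence sites are low for the deletion in under 30% of tags (10.8%), the AUA motif (5.19%) and the poly(A) signal (5.87%), against 71.7%, 41.6% and 51.2% in 3′UTRs.

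The AUA motif was rare among the members. It is a 7-nt pattern in DNA letters: ATA, preceded by A or T and before that by any base but C, and followed by A or T and then A. It was searched on the transcript strand in a window of 51 nt, 25 nt on each side of the deleted base. Of the 443 genes, 23 had it at the site nearest the 5′ end (5.19%, interval 3.48 to 7.67%). With sites chosen likewise, 41.6% of genes with a 3′UTR site and 28.5% of genes with an intronic site had it (adjusted p = 2.95e-65 and 1.47e-31, two-sided Fisher exact tests). This choice matters for 3′UTRs: over every site the motif was in 51.71% of 3′UTR and 29.78% of intronic sites. Over all 532 members it was in 26 windows (4.89%), against 3.63% of windows around every base of the coding sequences of the same genes. The members thus sat close to the level of coding sequence itself. The corresponding levels of 3′UTRs and introns are not given here. The tests therefore do not separate a preference of the sites from the sequence of each part.

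The poly(A) signal followed the same order. AATAAA or its variant ATTAAA, the hexamers that direct cleavage and polyadenylation near mRNA ends and that overlap the AUA motif in some matches, was in the window of 26 of 443 genes (5.87%, interval 4.04 to 8.46%). It was in 51.2% of genes with a 3′UTR site and 32.5% of genes with an intronic site (adjusted p = 4.19e-90 and 5.58e-37, two-sided Fisher exact tests). Over every site it was in 65.41% of 3′UTR and 33.18% of intronic sites. Around every base of the coding sequences of the member genes the share of the signal was 3.73%, and no such level is given for 3′UTRs and introns. Among the 83 low sites, 7 windows held it (8.43%, interval 4.15 to 16.4%) and 2 held the AUA motif (2.41%, interval 0.663 to 8.37%). The same tests among genes with low sites alone gave 9.09% for the signal and 3.64% for the motif in 55 genes. These shares were 62.6% and 49.8% in 3′UTRs and 75.9% and 66.0% in introns. With sites of 30% or more alone they were 5.75% and 5.5% in 400 genes, 19.9% and 20.9% in 3′UTRs and 30.9% and 27.25% in introns. Within each class coding sequence thus stayed lowest, but introns stood above 3′UTRs.

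The sites with an AUA match within 10 nt of the deletion numbered 16, and 11 of them also held a poly(A) signal in the window. The 4 below are those with the most deletions; the capital again marks the deleted base.
TRIM13, chr13:50013142-50013162, plus strand: tgtgcaaataTaaactattat
RTF1, chr15:41475779-41475799, plus strand: aagctcttaaTtataaattca
MYCBP2, chr13:77205268-77205288, minus strand: ggaggtagagGagaatatact
CNOT6, chr5:180550053-180550073, plus strand: ttggacctgtCatctaataaa

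Of these 16, the site in TRIM13, which encodes a ubiquitin ligase of the endoplasmic reticulum, was the single one of the low kind. It had 51 deletions in 2423 tags (2.10%), with the deletion inside the match, 9 nt before the end of the coding sequence and 16 nt from an annotated transcript end. The next in order had far fewer tags: RTF1, a transcription elongation factor (28 of 30 tags), MYCBP2, a ubiquitin ligase (23 of 23), CNOT6, a deadenylase that shortens poly(A) tails (23 of 23), PNN, a splicing-associated protein (16 of 17), and LAMA3, a laminin chain (14 of 15). UEVLD (13 of 13), SUCO (12 of 13), DNAJC10 (12 of 12) and GCNT1 (12 of 12) completed the 10 with the most deletions. The other 9 of these 10 were in the class of 30% or more.

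A stretch of A downstream marked the low kind. It followed 50 of the 83 low sites (60.2%, 95% Wilson interval 49.5 to 70.1%), 25 of the 141 sites at 30 to under 100% (17.7%, interval 12.3 to 24.9%) and 21 of the 308 sites at 100% (6.82%). As a reference, 11.4% of all bases in the coding sequences of the 55 genes with low sites were followed by such a stretch, and 5.71% in the genes that had sites of 30% or more alone. With 1 site per gene the shares were 50.9% (28 of 55 genes) and 9% (36 of 400 genes). Sites of 1 gene often share 1 stretch, so the intervals over sites are too narrow. Without the 5 genes with the most sites, 30 of 59 low sites (50.8%) were followed by a stretch. The share was 75.9% with at least 7 A in 10 nt and 34.9% with at least 9. These were described and not tested, since the classes were chosen with earlier results of the same list known.

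The excess of A at the low sites over the others was present on both sides and was larger downstream. The median distance from the deleted base to the start of the stretch was 24.5 nt (quartiles 16 and 30) at the low sites. It was also 24.5 nt (quartiles 16.25 and 29.75) at the 46 sites of 30% or more with a stretch. The search over 50 nt bounds this distance, so it is no spacing particular to low sites. A made up 51.2% of the bases 26 to 50 nt downstream of the low sites and 34.7% of those 26 to 50 nt upstream. At the sites of 30% or more these were 31.2% and 28.5%. In codons, the median share of AAA and AAG among the next 17 codons was 23.5% at low sites and 5.88% at the others. AAA and AAG codons thus took a larger share after the low sites. In 3′UTRs, 22.6% of sites under 30% had such a stretch, and in introns 30.3%. Whether capture or priming on A stretches had a part in these sites was not tested.

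**Figure D3:**
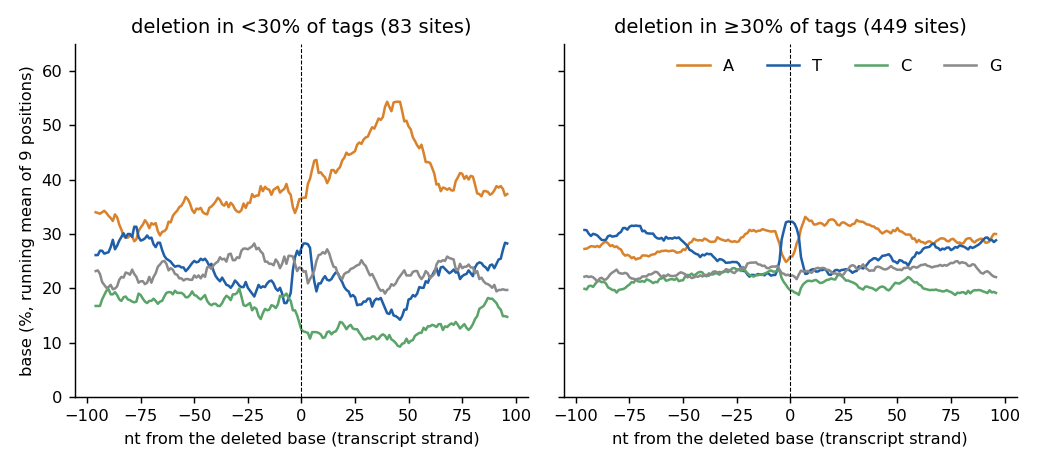
Percentage of A, C, G and T (y, running mean of 9 positions) by distance from the deleted base in nt on the transcript strand (x), for the 83 coding-sequence sites with the deletion in under 30% of the tags (left) and the 449 others (right). A rises downstream of the low sites, to 51.2% over 26 to 50 nt, and stays near 31.2% over the same range at the others. Without the running mean, T is most frequent at the deleted base itself (53.0% at low sites and 56.1% at the others).

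The deleted base was most often T (U in the RNA). T made up 296 of 532 deletions (55.6%, 95% Wilson interval 51.4 to 59.8%), G 19.2%, A 15.4% and C 9.77%, whereas the coding sequences of these genes hold 23.2% T, 24.3% G, 29.9% A and 22.5% C. Runs of exactly 3 T held 20.1% of the deletions and 2.76% of the coding bases. With 1 site per gene, T was deleted in 55.8% of coding-sequence genes, 72.4% of 3′UTR genes (adjusted p = 8.81e-13, two-sided Fisher exact test) and 57.8% of intronic genes (a difference of -2.07 percentage points, adjusted p = 0.432). A deletion within a run cannot be placed at 1 base. Among deletions with other bases on both sides the direction turned, with T at 36.9% of 149 coding-sequence genes and 32.7% of 3′UTR genes (adjusted p = 0.367, two-sided Fisher exact test, range over 11 alternatives 1.68e-21 to 0.367).

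G was the second most frequent deleted base in the members. It made up 23 of 83 deletions at low sites (27.7%, interval 19.2 to 38.2%) and 17.6% at the others. In 3′UTR sites under 30% it was deleted in 5.28% of 18490 sites, and in intronic ones in 5 of 175 (2.86%). The coding sequences of the genes with low sites hold 23.7% G, a value inside the interval for the low members. The 23 sites included GAG and GAA codons for glutamate in NUCKS1, PRRC2C, HMGN5, HSP90AB1 and THOC2 and AAG codons for lysine in MAP1B. The codon most often hit over all members was TTT for phenylalanine, with 54 sites, followed by GAT with 27 and CTT with 26. The deletion fell on codon positions 1, 2 and 3 in 31.2%, 32.5% and 36.3% of the sites.

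Low sites were placed towards the end of the coding sequence. Its last 10% held 25 of 83 low sites (30.1%, 95% Wilson interval 21.3 to 40.7%) and 59 of 449 others (13.1%, interval 10.3 to 16.6%). The last exon held 38.6% and 20.5%. An annotated transcript end lay within 100 nt downstream of 23 low sites (27.7%) and of 39 others (8.69%), compared with 5.10% of the coding bases of these genes. A stretch of A or such an end, or both, was present at 61 of the 83 low sites (73.5%, interval 63.1 to 81.8%) and at 80 of the 449 others (17.8%). In the last 10% of the coding sequence 12 of 25 low sites had a stretch of A, and before it 38 of 58, so the feature was not confined to the ends. The 22 low sites with neither lay in 19 genes, among them HSP90AB1, KTN1 and PBDC1 with 2 each.

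**Figure D4:**
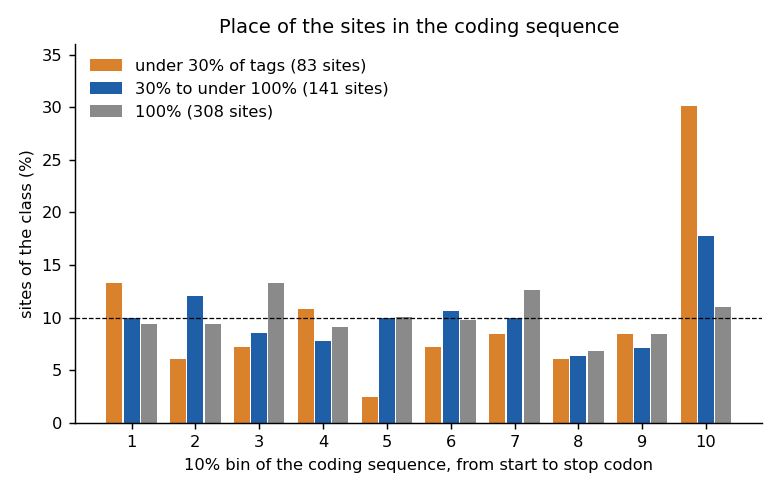
Percentage of the sites of a class (y) in each 10% of the length of the coding sequence from start to stop codon (x), for sites with the deletion in under 30%, in 30% to under 100% and in 100% of the tags; the dashed line marks 10%, an even spread. The last 10% holds 25 of the 83 low sites, against 25 of 141 and 34 of 308 sites in the other classes.

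Few members lay near exon boundaries. The deleted base was within 10 nt of a boundary at 12 of 532 members (2.26%, 95% Wilson interval 1.30 to 3.90%), against 11.2% of coding bases in the same genes, and the nearest was 7 nt away. None of the 83 low sites was so close, which allows a share of up to 4.42%. How tags across splice junctions were aligned and counted is not given in the sources used here, and its part in this was not tested.

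The 5 genes with the most members were KTN1 (8 sites), NUCKS1 (7), KIF5B (7), TOP2A (6) and PRRC2C (5). In KTN1, kinectin, a long coiled-coil protein of the endoplasmic reticulum membrane (chromosome 14, 55559072 to 55701526, plus strand), 7 low sites stood in exon 2, between nt 140 and 321 of a coding sequence of 4071 nt. Their tags ran from 3657 to 12079 and their deletions from 47 to 162. The first, with 162 deletions in 12079 tags (1.34%), and 4 others were followed by a stretch of A, and 2 in the middle, with 141 deletions in 3657 tags (3.86%) and 83 in 5335 (1.56%), were not. The eighth site, at nt 1887 in exon 14, had 16 deletions in 16 tags. The gene's most covered 3′UTR site had 55139 tags.

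NUCKS1, a chromatin protein rich in charged residues (chromosome 1, 205712822 to 205750182, minus strand), had 7 sites, all of the low kind. Of these, 5 were in exon 6 between nt 407 and 459 of 729 nt, with 12984 to 27111 tags, and all 5 were followed by a stretch of A. The site with the most deletions among them had 172 in 23018 tags (0.747%). The other 2 were in exon 7, 11 and 5 nt before the end of the coding sequence. They had 140 deletions in 26399 tags (0.530%) and 100 in 31506 (0.317%), the highest coverage of any member. The 3′UTR of NUCKS1 held 32 sites, with up to 45702 tags.

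KIF5B, the heavy chain of the motor kinesin-1 (chromosome 10, 32009015 to 32056425, minus strand), held the members with the most deletions. In exon 11, 5 low sites lay between nt 988 and 1025 of 2889 nt. The first had 279 deletions in 18416 tags (1.51%, 95% Wilson interval 1.35 to 1.70%) and the fourth 190 in 22270 tags (0.853%). The others had 84 deletions in 25635 tags, 47 in 23154 and 45 in 16084. Coverage rose and fell over 38 nt, and a stretch of A began 8 to 29 nt downstream of 4 of the 5 sites. The remaining 2 sites of the gene had 22 deletions in 25 tags (exon 4) and 7 in 7 (exon 19). At 3 of the 5 low sites the tags exceeded those of the most covered 3′UTR site of KIF5B (19398 tags).

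TOP2A, DNA topoisomerase II alpha (chromosome 17, 40388525 to 40417896, minus strand), had 2 low sites in the part of the coding sequence for its C-terminal region. They had 69 deletions in 10982 tags (exon 28, nt 3667) and 41 in 8057 (exon 29, nt 3757), and a stretch of A began 26 and 17 nt downstream. Its other 4 sites were spread from nt 325 to 3512 with 10 to 31 tags each. In PRRC2C, a large protein of RNA granules (chromosome 1, 171485530 to 171593511, plus strand), 3 low sites with 711 to 8901 tags all preceded a stretch of A and lay 30 to 72 nt from annotated ends of other transcripts of the gene, whereas the 2 others had 11 and 12 tags, all with the deletion. In all 5 genes the low sites were thus in 1 or 2 short segments. The other sites, present in each of these genes but NUCKS1, lay apart from them.

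**Figure D5:**
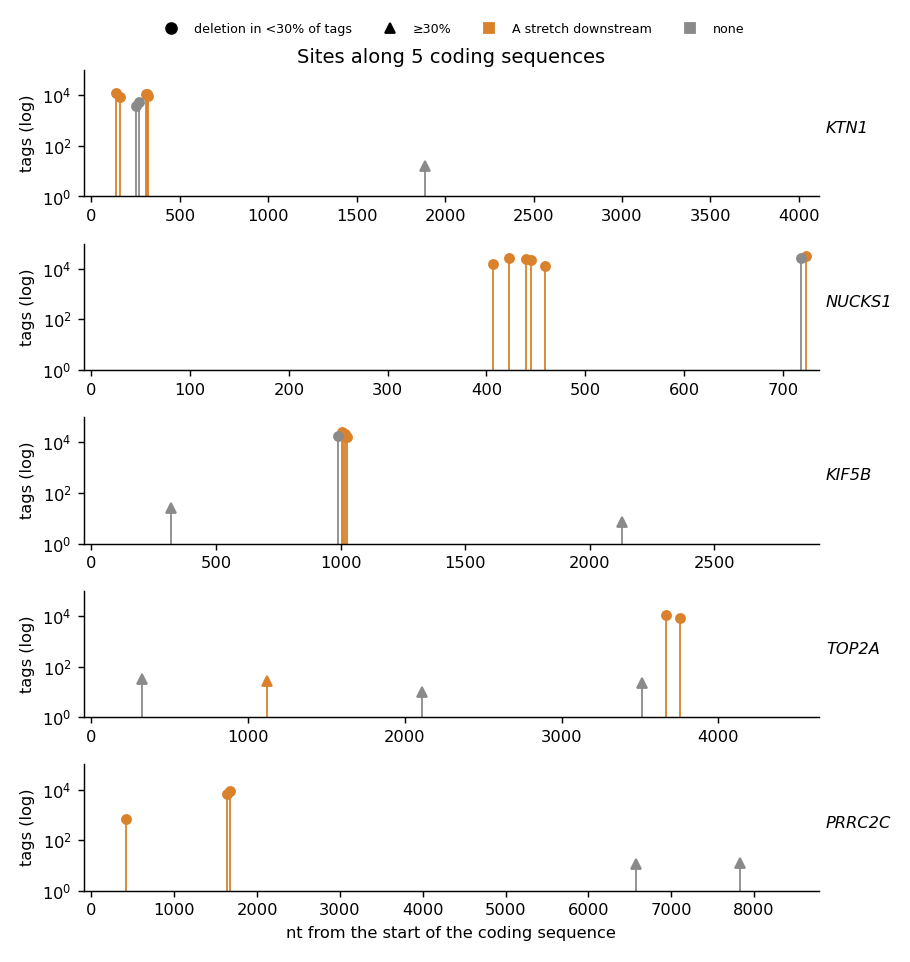
Tags over each site (y, log scale) by its position in nt from the start of the coding sequence (x) in the 5 genes with the most coding-sequence sites; circles have the deletion in under 30% of the tags, triangles in 30% or more, and orange marks a stretch of A within 50 nt downstream. In KTN1, NUCKS1 and KIF5B the low sites crowd in short segments of high coverage, while the triangles have 7 to 31 tags over the 5 genes.

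Some members with many deletions sat at the very end of the coding sequence. COL8A1, a collagen chain, had 182 deletions in 8368 tags (2.17%) 15 nt before the end of its coding sequence and 91 in 6241 tags (1.46%) 26 nt before it. LGALS3, galectin-3, had 155 deletions in 7221 tags (2.15%) and 50 in 6863 (0.728%), 13 and 15 nt before it. For these genes the stretch of A began 16 to 33 nt downstream, so it started at or after the stop codon. PTTG1, securin, had 96 deletions in 5377 tags (1.79%) 1 nt before the end, with a transcript end 27 nt away and no stretch of A.

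Ribosomal protein genes were among those with members at coding ends. Of 90 genes for cytosolic ribosomal proteins, 7 had a member and 61 had a 3′UTR site. Of these 7 members, 6 were low, against 83 of all 532 (15.6%): RPLP2 (119 deletions in 10005 tags, 1.19%), RPS12 (84 in 3574, 2.35%), RPLP1 (82 in 6640, 1.24%), RPL37 (48 in 5001, 0.960%), RPS27A (41 in 328, 12.5%) and RPS6 (40 in 966, 4.14%). In RPLP2, RPLP1, RPS12, RPL37 and RPS6 the deleted base was a T, 5 to 44 nt before the end of the coding sequence and 24 to 55 nt from an annotated transcript end. The 3′UTRs of these mRNAs are short. RPL8 differed, with 17 deletions in 29 tags in exon 2. The members in RPLP1 and RPLP2, both acidic stalk proteins, were listed at the same base of a CTT codon. In RPLP2 this base lies in a run of T, where a deletion cannot be placed exactly. Near-identical pseudogenes exist for many of these genes, which makes their tags less certain. Over all 20046 protein-coding genes, 443 had a member and 6258 a 3′UTR site.

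The other fixed groups held few members in number, and their counts stand beside 443 of all 20046 protein-coding genes with a member. No group was tested against that share. Of 118 genes for motors, centromere and centrosome proteins, 8 had 15 members, 5 of which were low, all in KIF5B. Of 173 ubiquitin and proteasome genes, 10 had 11 members with 2 low. Chaperones gave 7 members in 5 of 83 genes. HSP90AB1, the constitutive cytosolic HSP90, had 74 deletions in 8293 tags (0.892%) and 49 in 8051 (0.609%), 6 nt apart in exon 6 without a stretch of A, and 10 in 24 tags near its end. Translation factors had 5 members in 5 of 72 genes, and zinc finger genes 10 in 10 of 570. None of these members was low, against 83 of all 532, and so few members allow no reading of this. Histones, whose main mRNAs lack a poly(A) tail, had 1 member, in H2BC17, among 93 genes. The remaining groups had 3 or 4 genes each: hnRNP and splicing proteins (4 of 68), solute carriers (4 of 374), RNA helicases (3 of 54, with 2 low members, in DDX21 and DDX24), matrix proteins and integrins (3 of 90), cytoskeletal proteins (3 of 124) and Golgi or vesicle coiled-coil proteins (3 of 179).

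The 5 sites at 100% with the most tags were in genes of no common group. They were in ARHGEF3, a guanine nucleotide exchange factor (45 of 45 tags), CNN3, calponin-3 (44 of 44), ZNF804A, a zinc finger protein (44 of 44), CCN3, a secreted matrix-associated protein (40 of 40), and BCAR3, an adaptor protein (39 of 39). In 4 of them the deleted base was T and in CCN3 it was C. None had the AUA motif or a stretch of A. They lay at 31.7%, 1.11%, 88.7%, 64.99% and 90.1% of the coding sequence. All 5 genes also had 3′UTR sites, with 1467 to 24611 tags at the most covered one.

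Genes with a member were mostly genes with a 3′UTR site. This held for 44 of the 55 genes with low members (80.0%, 95% Wilson interval 67.6 to 88.5%) and 326 of the 400 genes with the others (81.5%, interval 77.4 to 85.0%), shares that lie within each other's intervals. Set against the most covered 3′UTR site of its gene, a low member had a median of 27.4% of the tags (range 1.25 to 149.8%, 71 sites) and a member of 30% or more 0.182% (370 sites). At 8 low members the tags reached those of the 3′UTR: 3 in KIF5B, 2 in COL8A1, 2 in HMGN5, a nucleosome-binding protein, and 1 in KRR1, a ribosome assembly factor. RBMS3, RBMS1, RBMS2 and TXNIP held 0 members, while their 3′UTRs held 2, 5, 1 and 3 sites.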

How the data were processed

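The 2 biological replicates of FLAG-tagged RBMS3 CLIP-seq in MDA-MB-231 cells were used. The authors appended molecular identifiers, aligned reads to hg38, reduced them to unique tags, pooled both replicates and found deletion sites with the CLIP Tool Kit at a false discovery rate under 10% and with a further filter named as a fold change over 10, whose terms are not spelled out (versions are not given in the sources used here). The deposited values are counts per site, the pooled tags and those with the deletion, not normalized. Library depths were not analysed here, so depth is given per site.

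The deleted base is the centre of each 21-nt interval. Sites were placed on GENCODE release 44 by strand, with 3′UTRs taken first, then 5′UTRs, then other exons. Transcript ends that the annotation marks as not found were left out. Shares have 95% Wilson intervals, which cover counting error only. The 8 tests were two-sided Fisher exact tests with 1 site per gene, the one nearest the 5′ end, adjusted together by Benjamini-Hochberg with a threshold of 0.05, and they compare sites, not replicates. Functions were tested on simulated data. Members, lists and tests were chosen with earlier results of these data known.

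The text names the 10 members with the most deletions, the 10 low ones and the 5 at 100% with the most tags, the 5 genes with the most members, the 10 with an AUA match within 10 nt and the most deletions, genes of the listed groups with 3 or more members, and RBMS3, RBMS1, RBMS2 and TXNIP. Other genes were chosen after their values were seen. The software was samtools 1.23.1 and Python 3.11.15 with matplotlib 3.10.9, pysam 0.24.0, numpy 2.4.6 and scipy 1.17.1.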

Additional observations from a re-analysis of the deposited data

How the results depend on the processing

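Of 90 values of the 8 tests under alternatives, 85 kept direction and side of the threshold. T as the deleted base decided the rest. Against introns its difference passed the threshold with at least 20 deletions (-10.21 percentage points, adjusted p = 0.0259, two-sided Fisher exact test), with 1 representative transcript per gene (-4.775, 0.0323) and with low sites alone (-16.69, 0.0365; the range over its alternatives was 0.0259 to 0.730). With other bases on both sides of the deletion the difference turned to 4.204 against 3′UTRs (exact test, adjusted p = 0.367) and 3.322 against introns (0.451), with fewer genes (149) left. The cause was not tested. The number of members was 175 (0.811% of sites) for a minimum of 20 deletions, 48 (0.317%) for 50, 800 (2.91%) with a representative transcript, 891 (3.24%) with coding sequence first and 83 (0.432%) with low sites alone. With 1 site per cluster the share was 3.14%. The share of low sites with a stretch of A was 75.9% with at least 7 A and 34.9% with at least 9. The alternatives on stretches of A, and those with sites of 30% or more alone or without members that precede a stretch, were chosen after seeing the data. No paired analysis was possible because the list pools both replicates of 1 group, so no replicate could be left out. No low member had fewer than 137 tags; what the filters allow at lower coverage was not tested.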
